A study of Mus musculus with 11 samples.

Results

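The genes that encode the proteins of the cytosolic ribosome were followed in the hippocampus of mice after intranasal insulin. The set was every row of the deposited expression table whose symbol has the form Rpl, Rps or Rplp followed by a number, with or without a final a or x, and which had a value in all 11 libraries. This gave 75 genes of the 46202 rows of the table, 29 of the small subunit and 46 of the large subunit, on 19 chromosomes. All 75 symbols of this form were complete, so the condition on values left out none, and the size of the values was not used. RNA was read from hippocampi of male mice of strain C3-C57B1/6J, aged 2 to 3 months, with no genetic change named in the labels. The control mice had received saline according to the titles; another label calls them untreated, at time 0 min (n = 3 libraries). The others had received 2.4 IU of insulin per nare and were sampled 15 min (n = 2, replicates 1 and 3), 1 h (n = 3) or 6 h (n = 3) later. Isoflurane anaesthesia preceded removal of the brain in all groups. Whether a library holds RNA of 1 animal is not stated, and p-values therefore reflect variation among libraries, which may be technical. The values are log2 signals from stranded total RNA of bulk tissue, in which fewer cells of a type and less RNA per cell cannot be told apart.

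A cytosolic ribosome joins a small subunit, which reads the mRNA, to a large subunit, which forms the peptide bond, and each holds many proteins made in matched amounts. Most of their mRNAs start with a 5′ terminal oligopyrimidine (TOP) tract, a C followed by a run of pyrimidines. Insulin acts through the kinases Akt and mTOR, and mTOR raises the translation of TOP mRNAs through the cap-binding inhibitors 4E-BP and the protein Larp1. That control acts mostly on how strongly the mRNAs are translated, which the RNA level measured here does not show. In neurons, local translation at synapses has been linked to plasticity and memory. Ribosomal protein mRNAs are also the source of a very large number of processed pseudogenes, copies of the mRNA pasted back into the genome, and these matter below because the table holds rows for them.

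The start sites are printed first because the TOP tract is the sequence feature through which insulin is known to act on this gene set. RefSeq start windows (GRCm38.p6) were at hand for 55 of the 75 genes. The search took, on the strand of the gene only, a C followed by 4 or more of C or T. Of the 55 genes, 12 (21.8%) had such a tract exactly at the annotated first base, against 2.48% of 27025 promoters. Within 5 bases of the annotated start, 26 of the 55 genes (47.3%) had one, against 18.5% of all promoters. In the windows below the annotated first base is the sixteenth letter and the tract is in capitals. The first 4 genes have a tract at the start, and the last 3, among them the genes nearest to the test threshold in the results, have none that begins within 5 bases of the start. The windows are examples, and whether a tract goes with a change was not tested.
Rps6 (chr4:86857353-86857382, minus strand): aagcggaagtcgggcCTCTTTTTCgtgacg
Rps18 (chr17:33955651-33955680, minus strand): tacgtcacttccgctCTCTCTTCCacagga
Rpl15 (chr14:18270972-18271001, minus strand): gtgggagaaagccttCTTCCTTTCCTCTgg
Rpl35 (chr2:39005117-39005146, minus strand): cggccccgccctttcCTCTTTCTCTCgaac
Rps16 (chr7:28350674-28350703, plus strand): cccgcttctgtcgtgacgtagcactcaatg
Rpl35a (chr16:33056438-33056467, plus strand): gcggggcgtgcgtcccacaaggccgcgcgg
Rplp0 (chr5:115559452-115559481, plus strand): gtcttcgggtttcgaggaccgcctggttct
A missing match says only that no such letters begin within 5 bases of the annotated start.

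What a row of this table holds had to be settled before any change could be read. Of the GENCODE pseudogene transcripts, 936 matched the coding sequence of 1 of the 75 genes over at least 80% of its length at 90% identity or more, and 601 of these had a row with a value. A copy with a value was found for 70 of the 75 genes. Rpl8, Rplp2, Rps3 and Rps21 were among the genes without one. In 57 genes at least 1 copy had a higher mean signal than the gene itself.

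The clearest cases are copies that are nearly letter for letter the mRNA. Rpl31, a large subunit protein gene, averaged a log2 signal of 0.63 over the 11 libraries, whereas Rpl31-ps8 averaged 7.88. Rpl19, another large subunit gene, averaged -0.27, whereas Rpl19-ps11 averaged 7.75. Rpl3, which encodes a protein beside the peptidyl transferase centre, averaged 2.62, whereas Rpl3-ps1 averaged 7.62. Over the whole coding sequence these copies were 100%, 99.8% and 99.8% identical to their genes. The first 60 bases of each coding sequence are shown in lower case to make the likeness visible. The 1 capital marks the only base in which a copy differs from its gene in this stretch.
Rpl31: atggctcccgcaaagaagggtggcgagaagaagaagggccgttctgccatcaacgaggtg
Rpl31-ps8: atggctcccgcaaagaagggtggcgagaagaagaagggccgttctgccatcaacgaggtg
Rpl19: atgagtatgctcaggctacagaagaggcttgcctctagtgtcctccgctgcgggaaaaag
Rpl19-ps11: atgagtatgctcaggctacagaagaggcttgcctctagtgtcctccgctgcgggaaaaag
Rpl3: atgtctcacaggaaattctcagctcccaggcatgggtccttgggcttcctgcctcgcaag
Rpl3-ps1: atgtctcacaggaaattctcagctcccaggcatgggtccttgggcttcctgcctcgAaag
A read from such a stretch matches gene and copy equally well. How reads with several matches were placed is not given in the sources used here, so the split between gene and copy is uncertain.

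The scale adds to this gap. Each row's linear signal times its RefSeq genomic span in kilobases summed to between 840133 and 1120957 per library over 37292 rows, near the total of CPM-like units, whereas the same sum with exonic length gave 204129 to 215245 over 33156 rows. The values thus behaved as signal per kilobase of gene span, introns included, and a copy without introns sits higher on this scale than a gene with introns for the same number of reads. The sources do not state the unit. Multiplying signal by span gave each row a weight that stands for its reads. By this weight, copies held over 50% of the family total in 36 of the 75 genes and over 90% in 16 genes. The share was 98.2% for Rps29 and 98.1% for Rpl17, and 0.036% for Rpl41, 0.475% for Rplp1 and 3.59% for Rps6. The 36 genes with most of their family weight in copies had a median log2 signal of 0.99, whereas the other 39 had 2.82.

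**Figure D1:**
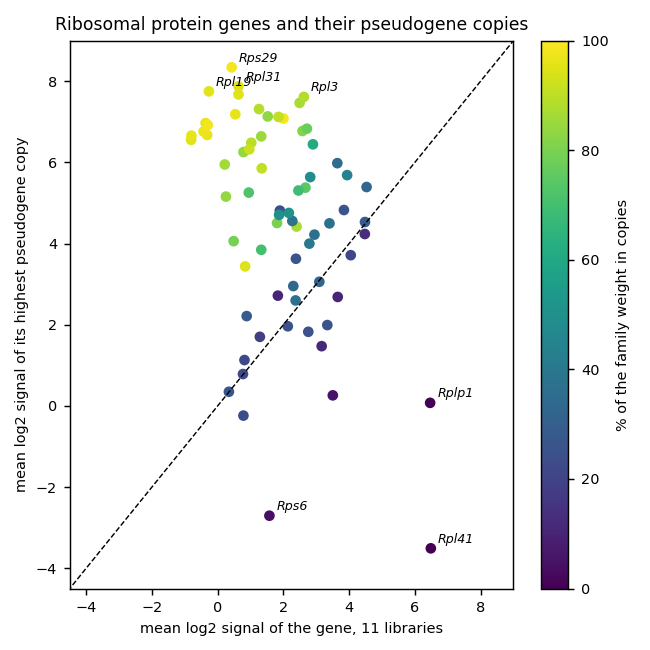
Mean log2 signal over 11 libraries of each ribosomal protein gene (x axis) against that of its highest pseudogene copy (y axis), for the 70 genes with a copy, coloured by the percent of the family weight in copies; the dashed line marks equal signals. Rpl31, Rpl19 and Rps29 lie far above the line, whereas Rplp1, Rpl41 and Rps6 lie below it.

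The 75 genes spanned a wide range of levels. The mean log2 signal per kilobase of gene span ran from -0.81 to 6.49 with a median of 1.89, between the 75.1 and 99.8 percentiles of the table. The highest were Rpl41 at 6.49, which encodes a very short peptide, and Rplp1 at 6.47, a protein of the acidic stalk that recruits translation factors. They were followed by Rpl8 at 5.63, Rpl4 at 4.53 and Rpl15 at 4.48, all large subunit proteins. The lowest were Rpl38 at -0.81, Rps10 at -0.80, Rps28 at -0.43, Rpl11 at -0.37 and Rps13 at -0.32. Within groups the SD between libraries had a median of 0.14, so Rpl41 and Rplp1 did not differ beyond it, nor did Rpl38 and Rps10, nor Rps28, Rpl11 and Rps13.

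Converted to a log2 level per kilobase of mRNA, the genes ran from 1.45 for Rpl12 to 7.77 for Rplp1. With the weight of the copies added, Rpl12 reached 6.27, Rpl38 reached 7.22 against 2.83 without copies, and Rps29 reached 8.20 against 2.34. The genes without copies kept a wide spread, with Rpl8 at 7.03 and Rps21 at 2.31 per kilobase of mRNA. The SD over the 75 genes was 1.47 without copies and 1.44 with them. These proteins enter the ribosome in equal numbers, with the exception of the stalk proteins Rplp1 and Rplp2.

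Within groups the SD ran from 0.039 for Rpl3 and Rpl8 to 0.40 for Rpl36a. Their median of 0.14 lay at that of 9799 rows in the same range of levels, also 0.14. The most variable after Rpl36a were Rps29 at 0.33 and Rps23 at 0.31.

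Over the series as a whole, 32037 to 33653 rows had a value in a library, and the sequencing depth is unknown. All 8 neuron markers, 6 hippocampus markers, 7 astrocyte markers and 6 oligodendrocyte markers had values in every library. Choroid plexus markers, whose tissue adjoins the hippocampus, varied widely among the insulin libraries. Their summed linear signal was 38.8 to 59.6 in the saline libraries. The sum lay between 27.4 and 130.3 at 15 min, between 2.72 and 86.6 at 1 h, and between 0.98 and 22.8 at 6 h. The 6 h libraries were thus all below the saline libraries in this sum, and its part in the results was not tested. The 5 endothelium markers had summed linear signals of 8.41 to 10.5 at 15 min and 9.13 to 10.2 at 1 h after insulin, against 10.9 to 16.7 with saline, so these groups did not overlap. At 6 h the sum was 10.5 to 13.7 and overlapped saline, limma called 0 of the 5 markers at any time, and their part in the results was not tested. Blood markers summed to 64.2 to 80.7 at 6 h, against 89.8 to 111.7 with saline, without overlap. They overlapped saline at 15 min (65.1 to 131.4) and at 1 h (85.3 to 139.3), and their part was not tested either. The ribosomal RNA row Rn18s-rs5 had log2 signals of 16.00, 13.05 and 13.79 with saline, 9.67 and 10.49 at 15 min, 10.18, 10.51 and 10.22 at 1 h, and 12.19, 11.65 and 11.04 at 6 h. Every insulin library was thus below every saline library in this row, and its part in the results was not tested. Leaving out the ribosomal RNA rows before the fit changed no call among the 75 genes. The deposited values of the other rows stay the same in that fit, so it cannot show how the ribosomal RNA bears on them.

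At 15 min after insulin, no ribosomal protein gene passed the test against saline. The moderated test of limma, with Benjamini-Hochberg adjustment over all rows at 0.05, called 66 of 27653 rows (0.239%) and 0 of the 75 genes, whose smallest adjusted p was 0.144. At an unadjusted p under 0.05, 16 genes were lower (13.2% of all rows were) and 0 were higher (1.86% of all rows were). The log2 changes of the 75 genes ran from -0.46 to 0.13 with a median of -0.19, beside a median of -0.14 over all rows tested. Changes were below 0 for 69 genes and above 0 for 6. Every insulin library was below every saline library in 29 of the 75 genes, or 38.7%, beside 31.6% of all rows, and above in 0 genes, beside 6.86%. Each gene's 95% interval lay within 1 log2 unit of 0, and for 44 genes it lay within 0.5.

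Rps16 (chr7:28350689-28352698, plus strand, RefSeq GRCm38.p6), a small subunit protein gene, had the smallest p at 15 min. Its log2 signals were 2.33 and 2.11 at 15 min after insulin, against 2.64, 2.72 and 2.59 with saline. Both insulin libraries were below all saline libraries. The log2 change was -0.43 (95% interval -0.67 to -0.19), with an adjusted p of 0.144 by limma. Copies held 69.1% of its family weight, and the log2 change of the summed family was -0.11 (adjusted p 0.666 by limma). The copy Rps16-ps2, 100% identical in coding sequence, had 5.28 and 5.48 at 15 min after insulin, against 5.20, 5.40 and 5.43 with saline.

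Other small p-values at 15 min belonged to genes from both subunits. Rps14 had 1.79 and 1.54 at 15 min after insulin, against 1.90, 1.95 and 1.93 with saline, a log2 change of -0.26 (adjusted p 0.197 by limma). Rpl23a, a protein at the exit of the peptide tunnel, had 2.43 and 2.21 at 15 min after insulin, against 2.58, 2.70 and 2.62 with saline, a log2 change of -0.31 (adjusted p 0.199 by limma). In both genes the groups did not overlap. Copies held 49.5% of the family weight of Rps14 and 86.7% of that of Rpl23a. The summed families changed by -0.19 for Rps14 (adjusted p 0.370 by limma) and by -0.03 for Rpl23a (adjusted p 0.926 by limma). Rps18, which carries a TOP tract at its start, had 1.27 and 0.87 at 15 min after insulin, against 1.46, 1.42 and 1.37 with saline. Rplp0, the base of the stalk and a common reference gene in quantitative PCR, had 3.40 and 3.09 at 15 min after insulin, against 3.42, 3.53 and 3.55 with saline. The log2 change of Rplp0 was -0.26 (95% interval -0.46 to -0.06, adjusted p 0.238 by limma). For Rps18 and Rplp0 replicate 3 lay far below replicate 1.

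At 1 h, limma called 243 of 27706 rows (0.877%) and again 0 of the 75 genes. At an unadjusted p under 0.05, 7 genes were lower (12.8% of all rows were) and 1, Rps9, was higher (2.87% of all rows were). The log2 changes ran from -0.42 to 0.20 with a median of -0.08, beside -0.11 over all rows. Insulin libraries were all below saline in 22 genes (29.3%, beside 21.8% of all rows) and all above in 3 genes, Rps9, Rps2 and Rpl15 (4%, beside 6.29%). The 95% intervals lay within 1 log2 unit of 0 for all 75 genes and within 0.5 for 64.

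Rpl35a (chr16:33056453-33060189, plus strand, RefSeq GRCm38.p6), a large subunit protein gene that is mutated in some patients with Diamond-Blackfan anaemia, came nearest to the threshold. Its log2 signals were 1.29, 1.00 and 1.04 at 1 h after insulin, against 1.51, 1.56 and 1.52 with saline, and the groups did not overlap. The log2 change was -0.42 (95% interval -0.62 to -0.22), with an adjusted p of 0.0618 by limma. It passed under 3 other settings, with an adjusted p just under 0.05 with an offset of 1 on the linear scale, 0.0435 without replicate 2 of the 6 h group, and 0.0496 without that library and replicate 3 of the 15 min group.

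The copies of Rpl35a gave other values than the gene row. They held 85.1% of the family weight, most of it in Rpl35a-ps2, which is 99.7% identical in coding sequence. Rpl35a-ps2 had 6.81, 6.92 and 6.99 at 1 h after insulin, against 6.50, 6.72 and 6.74 with saline. In that row every insulin library was above every saline library, with a log2 change of 0.25 (adjusted p 0.481 by limma). The summed family changed by 0.12 (adjusted p 0.701 by limma), with the sign opposite to that of the gene row.

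Of the other genes named for 1 h, Rpl21 had 2.79, 2.54 and 2.50 after insulin, against 3.02, 2.97 and 2.88 with saline, without overlap. Its log2 change was -0.35 (adjusted p 0.185 by limma), and that of its family sum -0.26 (adjusted p 0.256 by limma). Rps9, a small subunit protein at the mRNA entry channel, had a change above 0. Its values were 3.98, 3.99 and 4.06 at 1 h after insulin, against 3.78, 3.81 and 3.83 with saline, a log2 change of 0.20 (adjusted p 0.302 by limma). Rps2 had 3.41, 3.32 and 3.47 at 1 h after insulin, against 3.26, 3.29 and 3.22 with saline, a log2 change of 0.14 (adjusted p 0.497 by limma). In Rps9 and Rps2 every insulin library was above every saline library.

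At 6 h, limma called 0 of 27707 rows (0%) and 0 of the 75 genes. At an unadjusted p under 0.05 it gave 0 genes lower (4.23% of all rows were) and 1 higher (2.75% of all rows were), which was Rps9. Rps9 had 3.93, 4.01 and 4.07 at 6 h after insulin, against 3.78, 3.81 and 3.83 with saline, a log2 change of 0.20 (95% interval 0.003 to 0.39, adjusted p 0.714 by limma). Of its 8 insulin libraries, the lowest, replicate 3 of 15 min at 3.77, was the only one not above all saline libraries. The median log2 change of the 75 genes at 6 h was -0.06, beside -0.04 over all rows. Groups did not overlap in 6 genes that were lower (8%, beside 8.9% of all rows) and in 4 that were higher, Rps9, Rpl8, Rplp1 and Rpl27 (5.33%, beside 4.27%). Rpl29, the gene with the smallest p among those below saline, had 3.99, 3.93 and 4.09 at 6 h after insulin, against 4.10, 4.16 and 4.12 with saline, a log2 change of -0.12 (adjusted p 0.721 by limma). Rplp1 had 6.46, 6.63 and 6.57 at 6 h after insulin, against 6.41, 6.45 and 6.41 with saline, a log2 change of 0.13 (adjusted p 0.721 by limma).

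Over all 8 insulin libraries against saline, limma called 33 of 27717 rows (0.119%) and 0 of the 75 genes, with Rpl35a having the smallest adjusted p at 0.293. At an unadjusted p under 0.05, 11 genes were lower (9.32% of all rows were) and 1, Rps9, was higher (2.73%). Between the 3 insulin times, the moderated F test called 2 of 27637 rows (0.00724%) and 0 of the 75 genes, with a smallest adjusted p of 0.316. At an unadjusted p under 0.05 it gave 6 genes, beside 11.4% of all rows. The 29 small and 46 large subunit genes had median log2 changes of -0.18 and -0.19 at 15 min, -0.05 and -0.10 at 1 h, and -0.07 and -0.06 at 6 h.

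**Figure D2:**
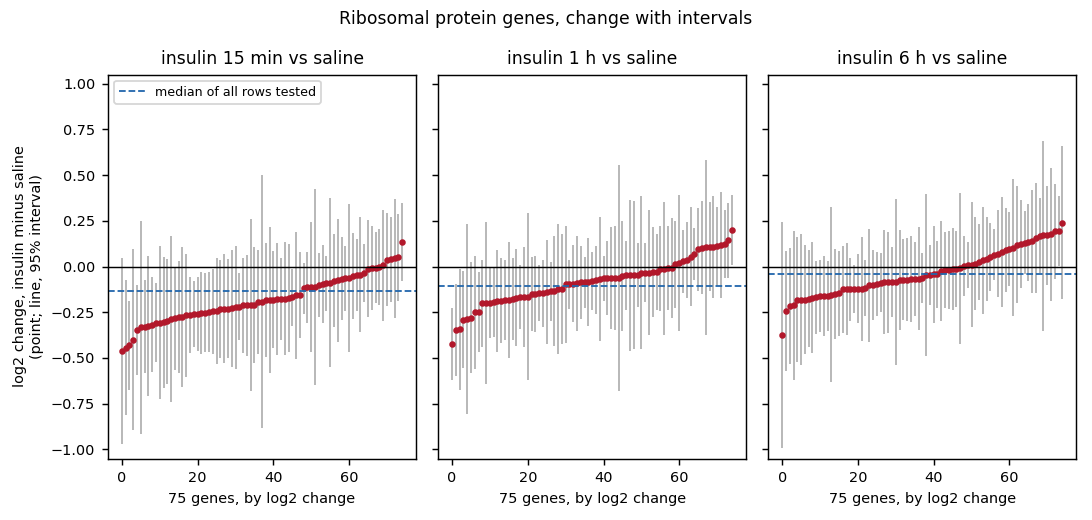
Log2 change with its 95% interval (insulin minus saline) for the 75 genes, ordered by change within each comparison; the dashed line is the median over all rows tested. The points centre on -0.19, -0.08 and -0.06 at 15 min, 1 h and 6 h, and no gene's interval reaches beyond 1 log2 unit from 0.

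No gene with a known role outside bulk protein synthesis passed the test. Rps6, whose protein is phosphorylated by S6 kinase after insulin signalling, had 1.51, 1.68 and 1.70 with saline, 1.56 and 1.51 at 15 min, 1.56, 1.59 and 1.59 at 1 h, and 1.58, 1.38 and 1.68 at 6 h. Every insulin group overlapped saline. The 95% interval of its change ran from -0.31 to 0.12 for 15 min, from -0.24 to 0.14 for 1 h and from -0.27 to 0.11 for 6 h. Copies held 3.59% of its family weight. Rpl5 and Rpl11, which with 5S ribosomal RNA bind Mdm2 and stabilise p53 when ribosome assembly fails, gave log2 changes of -0.08 and -0.46 at 15 min. Rpl11 had -0.27 and -1.08 at 15 min after insulin, against -0.10, -0.08 and -0.47 with saline, so its change rested on replicate 3. The summed Rpl11 family, with 96.3% of its weight in copies, changed by -0.04 at 15 min. The summed Rpl5 family, with 88.8% of its weight in copies, changed by 0.17 at 15 min.

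Some genes had no copy with a value under the limits of 90% identity and 80% length, so their family sum is the gene row. Copies without a value, shorter matches and copies outside the annotation were not counted, so confusion with those cannot be judged. Rpl8, a protein of the peptidyl transferase centre, had 5.59 and 5.54 at 15 min, 5.60, 5.72 and 5.69 at 1 h, and 5.65, 5.66 and 5.69 at 6 h after insulin, against 5.59, 5.61 and 5.59 with saline. Its log2 changes were -0.04, 0.07 and 0.07, and its 95% intervals together ran from -0.20 to 0.21. Rps3, which lines the mRNA entry channel, had log2 changes of -0.05, -0.05 and -0.10 at 15 min, 1 h and 6 h. Rplp2, of the acidic stalk, had 0.01, 0.05 and 0.17. Rps21 had -0.31, 0.02 and 0.10, and its 15 min libraries were 0.93 and 0.25, against 1.04, 0.81 and 0.84 with saline. The adjusted p of these 4 genes by limma was 0.470 or higher in every comparison with saline.

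**Figure D3:**
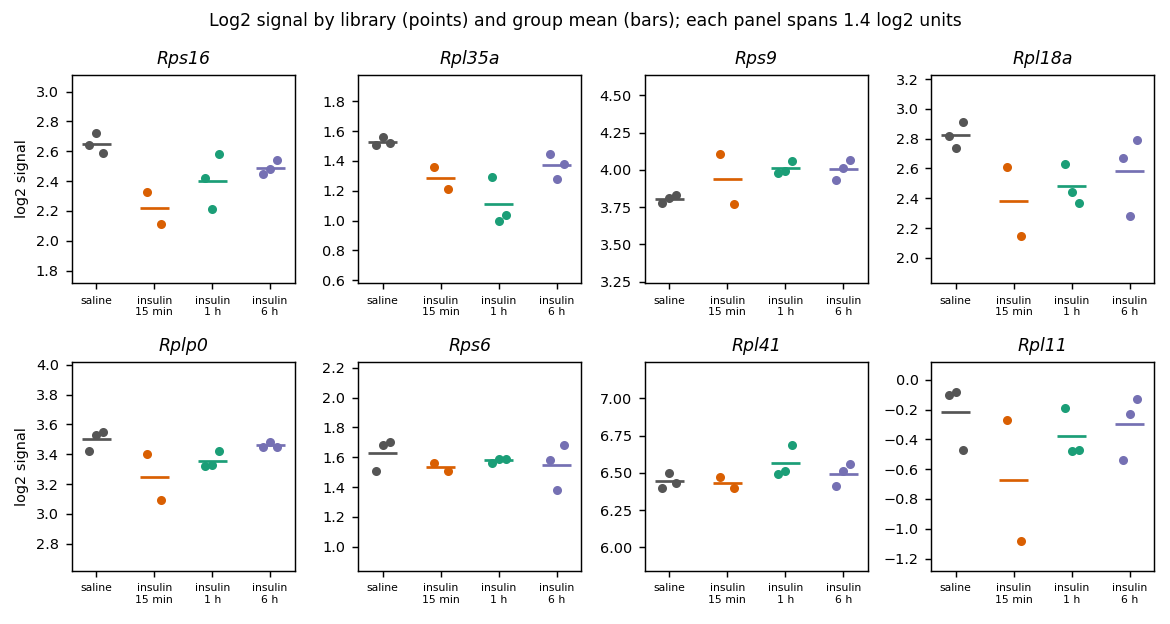
Log2 signal of 8 ribosomal protein genes in each library (points) with group means (bars), from saline through 15 min, 1 h and 6 h of insulin; every panel spans 1.4 log2 units. Rps16 and Rpl35a lie lower at 15 min and 1 h than with saline, Rps9 lies higher at 1 h and 6 h, and Rpl11 is spread widest at 15 min (-0.27 and -1.08).

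Libraries of 1 group differed from each other. The median deviation of the 75 genes from their saline mean was -0.01, 0.01 and -0.01 in the saline libraries, -0.04 and -0.36 in replicates 1 and 3 of 15 min, -0.01, -0.15 and -0.08 in those of 1 h, and -0.04, -0.16 and 0.05 in those of 6 h. Replicate 3 of 15 min was below every saline library in 65 of the 75 genes, or 86.7%, beside 51.2% of all rows, whereas replicate 1 was below in 31 genes, or 41.3%, beside 44.8%. At 1 h the 3 libraries were below every saline library in 24 genes (32%, beside 43% of all rows), 51 genes (68%, beside 47.1%) and 37 genes (49.3%, beside 41.9%). At 6 h they were below in 30 genes (40%, beside 32.4%), 47 genes (62.7%, beside 45.3%) and 11 genes (14.7%, beside 21.6%). Without replicate 3 the median log2 change at 15 min was -0.04, beside -0.10 over all rows, and without replicate 1 it was -0.36.

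Replicate 3 of 15 min deviated from saline in other lists as well. Its median deviation was -0.28 for 90 rows listed by symbol under nuclear oxidative phosphorylation and -0.24 for 81 mitochondrial ribosomal protein genes. It was 0.43 for the neuron markers, 0.46 for the hippocampus markers, -0.58 for the endothelium markers and -0.72 for the blood markers. For some of these lists values of like size occurred in other libraries. They were 0.44 for the hippocampus markers and -0.47 for the endothelium markers in replicate 3 of 1 h, and -0.77 for the blood markers in replicate 2 of 6 h. The neuron markers reached at most 0.17 in any other library, replicate 3 of saline. The lowest other value for oxidative phosphorylation was -0.16, in replicate 2 of 6 h. Coding rows at or above the level of the lowest ribosomal protein gene were split into 3 equal groups by mRNA length, and deviated by -0.21 in the group with the shortest mRNAs and by 0.05 in that with the longest. The part of these differences in the values of the 75 genes was not tested. Of the pseudogene copies, 140 had a mean log2 signal above 0, and their median deviation in this library was -0.11, and that of the summed families -0.13.

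Replicate 2 of 6 h was ordered by base composition. With the 75 genes split into 3 groups of 25 by mRNA GC content, its deviations had a median of -0.30 in the lowest group, -0.12 in the middle one and 0.04 in the highest. The same split of 7920 coding rows gave -0.26, -0.08 and 0.18. Spearman's rho between deviation and GC content was 0.59 over the 75 genes and 0.59 over the coding rows, given as a description, since all points share 1 library. The extremes were Rpl13 at 2.54 in this library, against 1.84, 1.89 and 1.78 with saline, and Rpl36a at -0.03, against 0.98, 1.11 and 0.83 with saline. The interquartile range of its deviations was 0.36, and 0.24 after adjustment for GC content. In the other libraries after insulin rho over the 75 genes was 0.33 or lower, and in the saline libraries it was 0.15, 0.25 and -0.37. Over the coding rows rho in the saline libraries was 0.45, 0.27 and -0.50, so deviations were ordered by GC content there too. The saline libraries are set against their own mean, so opposite signs among them are built in.

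**Figure D4:**
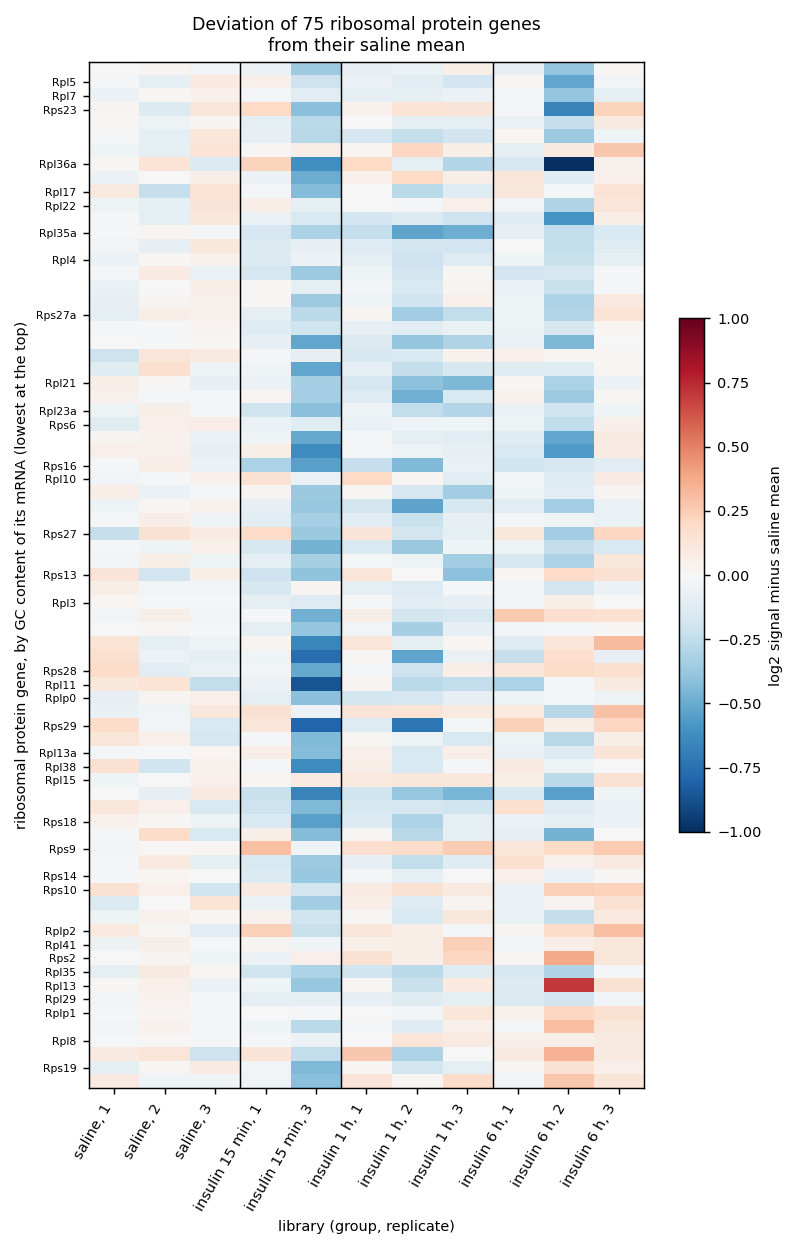
Log2 signal minus the saline mean for the 75 genes (rows, lowest mRNA GC content at the top) in the 11 libraries (columns), with some of the genes labelled, blue below and red above the saline mean. Replicate 3 of 15 min is blue in nearly all genes (median -0.36), and replicate 2 of 6 h is blue at the top (-0.30 in the 25 genes of lowest GC content) and pale or red at the bottom (0.04 in the 25 of highest).

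**Figure D5:**
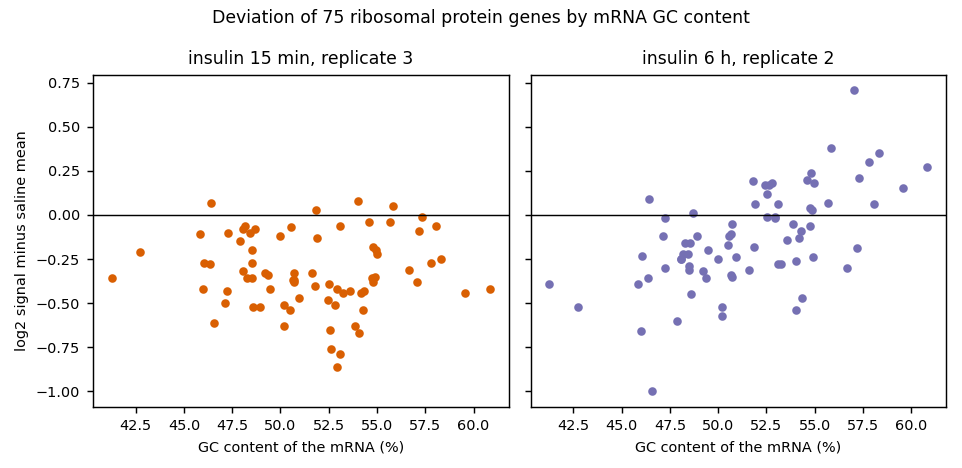
Log2 signal minus the saline mean of each of the 75 genes against the GC content of its mRNA, in replicate 3 of 15 min and replicate 2 of 6 h. In replicate 2 of 6 h the deviation was higher in genes of higher GC content (rho 0.59), whereas in replicate 3 of 15 min genes of all GC contents lie below 0.

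The size of the median changes, and at 1 h their sign, depended on how copies and scaling were treated. With each gene summed with its copies, the 75 families had median log2 changes of -0.06 (15 min), 0.01 (1 h) and -0.04 (6 h), and limma called 0 families. With the libraries centred on their medians instead, it was -0.02 at 15 min, beside 0.04 over all rows, and 0.06 at 1 h, beside 0.03 over all rows. For the 140 copies alone, limma called 0, and their median log2 changes were -0.05, 0.02 and -0.07. The low side at 15 min and 1 h is therefore described only on the deposited scale and for the gene rows.

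Genes around the ribosome were counted by lists chosen with earlier results of these data known. Of 4 tested ribosomal protein genes whose names fall outside the rule, Rpsa, Rps3a1 and Fau among them, limma called 0. Rpsa, a small subunit protein also known as the laminin receptor, had 3.65 and 3.66 at 15 min and 3.74, 3.58 and 3.71 at 1 h after insulin, against 3.86, 3.90 and 3.93 with saline. All of these insulin libraries were below all saline libraries, with log2 changes of -0.24 and -0.22 (adjusted p 0.169 and 0.125 by limma). No call was made among 7 paralogs of ribosomal protein genes, 81 mitochondrial ribosomal protein genes or 18 other translation genes with TOP mRNAs. The same held for 11 genes that control ribosomal protein synthesis, 13 hosts of small nucleolar RNAs and 91 rows of nuclear oxidative phosphorylation. These 91 rows were taken by the start of the symbol and include assembly factors such as Ndufaf5 and pseudogenes such as Atp5l-ps1. At an unadjusted p under 0.05, 24 of the 81 mitochondrial ribosomal protein genes were lower at 15 min, beside 13.2% of all rows, and 12 were lower at 1 h, beside 12.8%. Of the 91 rows of oxidative phosphorylation, 18 were lower at 15 min, 22 at 1 h and 24 over all insulin libraries. The shares of all rows were 13.2%, 12.8% and 9.32%.

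The only call around the ribosome was Nop56, a core protein of the particles that methylate ribosomal RNA, 1 of 32 genes of ribosome biogenesis. Over all rows, 243 of 27706 (0.877%) were called at 1 h. Of the 32 genes, 4, Nop56 among them, were lower at 1 h at an unadjusted p under 0.05, beside 12.8% of all rows. In the other direction 1 gene, Grwd1, was higher, beside 2.87% of all rows. Nop56 had 2.73 and 2.69 at 15 min and 2.69, 2.71 and 2.70 at 1 h after insulin, against 3.06, 3.05 and 3.12 with saline. At 6 h it had 3.05, 2.92 and 3.03. It fell at 1 h, by 0.37 on the log2 scale (adjusted p 0.0204 by limma), while the change of -0.37 at 15 min had an adjusted p of 0.0645. Leaving out each library in turn ended the 1 h call in 6 of 11 runs, those without any 1 library of the 1 h or saline groups. In those 6 runs the adjusted p by limma ran from 0.0549 to 0.1. The smallest of the 11 runs, 0.00689, was that without replicate 2 of 6 h. Median centring ended it too, with a log2 change of -0.23 and an adjusted p of 0.126, as did a fit without the mean-variance trend, at 0.0605.

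Genes that relay insulin signals to ribosomal protein synthesis did not pass the test. The 11 genes of this list had a median log2 change of 0.02 at 15 min, beside -0.14 over all rows. Mtor and Rps6kb2 had the smallest p of the list at 15 min, and both were lower. The next 3 by p, Larp4, Rps6ka3 and Eif4ebp2, had log2 changes of 0.18, 0.18 and 0.25. Mtor had -0.40 and -0.38 at 15 min after insulin, against -0.11, -0.26 and -0.29 with saline, a log2 change of -0.17 (adjusted p 0.403 by limma). Rps6kb2, an S6 kinase, had 0.16 and -0.17 at 15 min after insulin, against 0.49, 0.25 and 0.25 with saline, a log2 change of -0.34 (adjusted p 0.240 by limma). Eif3f belongs to the list of other translation genes with TOP mRNAs and encodes a subunit of an initiation factor. It had 1.93, 1.83 and 1.94 at 1 h after insulin, against 1.30, 1.38 and 1.34 with saline. Its log2 change was 0.56 (adjusted p 0.106 by limma). In Mtor, Rps6kb2 and Eif3f the groups did not overlap at the time given. Of all rows, 31.6% were lower without overlap at 15 min and 6.29% were higher without overlap at 1 h.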

How the data were processed

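The authors deposited 1 table of log2 signals per gene symbol for the 11 libraries, with missing values marked. Over the 11 libraries together the values ran from -13.64 to 16.00. Whether the libraries share 1 distribution was not tested. Partek 6.7, bcl2fastq and the build GRCm38 appear in the submitters' processing notes. The aligner, the counter and the placing of reads with several matches are not given there, and depth is unknown, so no counting interval can be given.

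The 75 genes and all lists were chosen with earlier results of these data known. Rows in the lowest 40% by mean were left out, which kept 27721 rows and all 75 genes. On the kept rows, limma 3.58.1 (R 4.3.3) fitted the 4 groups jointly, with empirical Bayes shrinkage and a mean-variance trend. Tests were two-sided, with Benjamini-Hochberg adjustment across every row tested and a threshold of 0.05. All insulin against saline was a second fit, with 2 groups. The test was tested on simulated data. Intervals are 95%. Pseudogene transcripts of GENCODE vM21 were matched to coding sequences with BLAST 2.17.0. Gene coordinates and start windows are from RefSeq, GRCm38.p6.

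Named genes were those past the threshold, the 3 with the smallest p in each direction per comparison with saline, the 5 highest and 5 lowest in signal, the 3 with the largest SD with saline, and a fixed panel. Not every gene so taken is reported, and some items are not reported here. Rpl8, Rps3 and Rps21 (no copy), Rpl36a, Rpl13, Rps29, Rps23, Rpl12, Rpl27, Rpl19 and Rpl31 (extremes) were chosen after their values were seen.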

Additional observations from a re-analysis of the deposited data

How the results depend on the processing

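The alternatives were cyclic loess, median centring, no filter on low values, a filter to means above 0, an offset of 1 on the linear scale, no mean-variance trend, only the groups compared (not possible for all insulin against saline, which uses every library), no ribosomal RNA rows and each library left out in turn. Family sums, an adjustment for GC content and leaving out replicate 3 of 15 min and replicate 2 of 6 h together were chosen after seeing the data. Leaving out a 15 min library leaves 1, which is assumed to vary like the other groups. The count of ribosomal protein genes called stayed at 0 under each of these, at 15 min, at 6 h, over all insulin and between times. At 1 h it was 1, Rpl35a, with the offset, without replicate 2 of 6 h, and without both libraries, and 0 otherwise, so leaving out single libraries gave 0 to 1. The median log2 change at 15 min, -0.193, was -0.022 with median centring, -0.063 with family sums, -0.067 with GC adjustment, -0.039 without both libraries, and -0.357 to -0.039 with single libraries left out. At 1 h it was -0.079, against 0.060 with median centring, and -0.101 to -0.049 with single libraries left out. At 6 h it was -0.063, with -0.103 to 0.009 over single libraries left out. For genes named in the text, 2121 of 2259 alternative values stayed within the spread and on the same side of the threshold, 135 moved beyond it and 3 passed the threshold, all Rpl35a. The cause was not tested. Whether equal replicate numbers pair the libraries could not be decided. Of 15 same-number pairs, 7 had deviations correlated above 0.1 (median r 0.087, from -0.056 to 0.237). Deviations from a group mean sum to 0 within a group of 2 or 3, which constrains these correlations. With the replicate block the count stayed at 0 in every comparison and the 15 min median was -0.230. Rows called at 15 min numbered 66, and 38 with the block, 114 without the trend and 1 with only the groups compared. The unknown depth and groups of 2 or 3 limit precision: the median standard error of a log2 change was 0.12 at 15 min and 0.108 at 1 h and 6 h.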
